A study of Mus musculus with 6 samples.

Results

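The genes described here encode the proteins of the mitochondrial ribosome and the mitochondrial protein import machinery, and the question asked of them is where Flag-tagged Rxra and the histone mark H3K27ac were found at their ends. They were taken as every RefSeq protein-coding gene of mouse build GRCm38.p6 on chromosomes 1 to 19, X and Y whose symbol begins with Mrpl, Mrps, Timm or Tomm followed by a digit. This gave 103 of 21887 genes: 49 Mrpl genes (large ribosomal subunit), 29 Mrps genes (small subunit), 15 Timm genes (inner-membrane translocases and their chaperones) and 10 Tomm genes (outer-membrane translocase). The symbols alone define the list, but the families were chosen by their counts of Flag-Rxra peaks in these same files, because peaks are frequent at Timm genes. Every Flag-Rxra count at these genes is therefore a description and carries no test.

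The study profiled chromatin by CUT&Tag, in which an antibody brings a transposase to its target so that the released DNA fragments mark the place, during chemical reprogramming of mouse embryonic fibroblasts toward pluripotency. The 6 samples, cells labelled OG2X129, form 3 groups of 2. One received CD and was profiled with an H3K27ac antibody, another received DMSO and was profiled with the same antibody, and the third overexpressed Flag-Rxra and was profiled with a Flag antibody. The labels do not spell out CD, although the series title names CD3254, a synthetic RXR agonist, nor do they give the Flag-Rxra cells' treatment, the day of any sample or whether replicates were separate cultures.

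Mitochondria keep a small genome for a few respiratory-chain subunits, which their own ribosome translates. All proteins of that ribosome, like nearly all other mitochondrial proteins, are encoded in the nucleus, made in the cytosol and imported through the TOM channel of the outer membrane. From there TIM23 takes presequence-bearing precursors into the matrix, while the small Tim chaperones carry hydrophobic carriers across the intermembrane space to TIM22. Rxra is a nuclear receptor that pairs with other receptors on repeats of a short hexamer, and promoters of nuclear genes for mitochondria are known for sites of NRF1, ETS-family GABP and YY1. H3K27ac marks active promoters and enhancers.

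Promoter sequences are shown for 8 genes, to set the genes with the best-ranked Flag-Rxra peaks beside import genes without a peak shared by both replicates. Each is the RefSeq stretch of 300 bases (250 before and 50 after the annotated start) on build GRCm38.p6, written along the gene's own strand. Capitals mark matches on either strand to the nuclear receptor hexamer AGGTCA, the ETS core CCGGAA, the NRF1 core GCGCNTGCG, the YY1 core AAGATGG and the E-box CACGTG. A match is a string of letters, not a shown binding site.
Timm13, minus strand of chr10:80900920-80901219: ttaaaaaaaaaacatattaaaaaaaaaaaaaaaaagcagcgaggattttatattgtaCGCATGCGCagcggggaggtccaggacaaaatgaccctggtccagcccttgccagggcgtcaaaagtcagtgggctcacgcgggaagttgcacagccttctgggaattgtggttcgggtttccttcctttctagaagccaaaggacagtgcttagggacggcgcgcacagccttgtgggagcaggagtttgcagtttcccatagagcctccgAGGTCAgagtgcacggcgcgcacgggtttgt
Timm50, minus strand of chr7:28311997-28312296: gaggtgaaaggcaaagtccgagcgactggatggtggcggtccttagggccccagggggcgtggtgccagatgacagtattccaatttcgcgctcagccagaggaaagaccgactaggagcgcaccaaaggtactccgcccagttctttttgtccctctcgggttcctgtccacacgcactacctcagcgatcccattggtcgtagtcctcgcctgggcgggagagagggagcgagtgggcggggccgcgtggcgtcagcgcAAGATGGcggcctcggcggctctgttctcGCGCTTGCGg
Tomm40, minus strand of chr7:19715380-19715679: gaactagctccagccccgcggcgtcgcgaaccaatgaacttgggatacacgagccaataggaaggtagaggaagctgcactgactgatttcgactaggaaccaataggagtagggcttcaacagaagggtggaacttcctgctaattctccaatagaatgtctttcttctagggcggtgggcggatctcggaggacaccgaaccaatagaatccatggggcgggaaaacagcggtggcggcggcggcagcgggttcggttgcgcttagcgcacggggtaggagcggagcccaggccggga
Mrps17, plus strand of chr5:129715247-129715546: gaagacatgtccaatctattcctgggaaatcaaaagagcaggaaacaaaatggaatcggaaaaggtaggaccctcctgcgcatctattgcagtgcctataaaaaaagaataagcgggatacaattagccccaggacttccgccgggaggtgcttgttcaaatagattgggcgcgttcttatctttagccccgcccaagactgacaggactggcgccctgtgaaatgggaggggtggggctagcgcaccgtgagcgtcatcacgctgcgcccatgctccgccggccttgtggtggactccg
Mrps12, minus strand of chr7:28741772-28742071: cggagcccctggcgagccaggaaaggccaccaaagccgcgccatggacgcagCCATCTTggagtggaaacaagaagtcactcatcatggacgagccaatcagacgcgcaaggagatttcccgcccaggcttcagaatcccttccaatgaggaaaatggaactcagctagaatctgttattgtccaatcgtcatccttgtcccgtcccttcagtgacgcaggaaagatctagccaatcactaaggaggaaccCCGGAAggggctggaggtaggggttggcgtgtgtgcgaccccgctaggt
Mrpl3, plus strand of chr9:105053018-105053317: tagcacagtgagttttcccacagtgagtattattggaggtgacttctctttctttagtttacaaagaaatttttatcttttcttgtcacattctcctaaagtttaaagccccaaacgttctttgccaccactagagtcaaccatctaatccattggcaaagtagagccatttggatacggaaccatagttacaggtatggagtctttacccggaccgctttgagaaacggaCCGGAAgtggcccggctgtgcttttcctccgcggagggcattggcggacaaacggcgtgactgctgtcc
Timm29, plus strand of chr9:21592472-21592771: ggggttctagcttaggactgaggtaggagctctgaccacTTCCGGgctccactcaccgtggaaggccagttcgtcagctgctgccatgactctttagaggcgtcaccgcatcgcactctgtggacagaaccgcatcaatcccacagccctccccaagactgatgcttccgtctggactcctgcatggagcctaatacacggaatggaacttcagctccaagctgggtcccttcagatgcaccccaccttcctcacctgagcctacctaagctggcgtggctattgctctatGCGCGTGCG
Timm8a1, minus strand of chrX:134541621-134541920: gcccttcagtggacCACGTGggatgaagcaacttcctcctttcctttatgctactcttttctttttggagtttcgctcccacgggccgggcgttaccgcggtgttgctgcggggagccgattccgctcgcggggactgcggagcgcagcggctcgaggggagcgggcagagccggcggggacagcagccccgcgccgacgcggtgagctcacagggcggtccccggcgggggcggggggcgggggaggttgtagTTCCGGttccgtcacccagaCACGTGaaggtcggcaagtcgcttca

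In the first of these, Timm13, the hexamer lies at bases 20 to 25 after the start and an NRF1 match at −193 to −185. The replicate 1 peak summit of Timm13 stood between them, at −24. The Timm50 promoter carries a YY1 match at 12 to 18 and an NRF1 match at 41 to 49, both just past the start. Tomm40 and Mrps17 hold none of the 5 marked motifs. Mrps12 has an ETS match at 2 to 7 and a YY1 match at −198 to −192, and all 300 bases lie inside its peak. The promoters without a peak shared by both replicates are not empty of such letters: Timm29 has an ETS and an NRF1 match, and Timm8a1 an ETS match and a pair of E-boxes. Mrpl3, whose promoter holds an ETS match at −19 to −14, had its peak at the other end of the gene.

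A Flag-Rxra peak found in both replicates lay at the ends of most of these genes. The replicate lists held 28243 and 45999 peaks, and a peak was called shared where a replicate 1 peak overlapped a replicate 2 peak by at least 1 bp, which 17623 did. Such a peak lay within 1 kb of either gene end at 65 of the 103 genes (63.1%, exact 95% binomial interval 53.0 to 72.4), against 32.6% of all 21887 protein-coding genes. Because the families were chosen for such peaks, this interval and those by family below are no test against that share. Counting every peak of the replicate 1 list, shared or not, 81 of the 103 genes had one, against 41.7% of all genes. In the replicate 2 list, counted the same way, 77 had one, against 42.1% of all genes. No control library was used here, so a peak marks where the Flag library was enriched over the authors' background and is not by itself a binding site of Rxra.

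The share with such a peak was above that of all genes in each family. The inner-membrane Timm genes had a shared peak at 12 of 15 (80.0%, interval 51.9 to 95.7), the outer-membrane Tomm genes at 7 of 10 (70.0%, 34.8 to 93.3), the large-subunit Mrpl genes at 29 of 49 (59.2%, 44.2 to 73.0) and the small-subunit Mrps genes at 17 of 29 (58.6%, 38.9 to 76.5). The 4 intervals overlap, differences between families were not tested, and their order depends on how a peak is called. With a −log10 q of at least 20 in both lists the counts were 6 Timm, 6 Tomm, 21 Mrpl and 13 Mrps genes, which puts Timm last. With an overlap of at least 50% of both peaks they were 6, 5, 18 and 10, which puts Tomm first. Genes with a cytosolic ribosomal protein symbol, like-named genes included, had a shared peak at 44 of 85 (51.8%). Genes with an oxidative phosphorylation symbol, complex I assembly factors included, had one at 65 of 96 (67.7%).

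**Figure D1:**
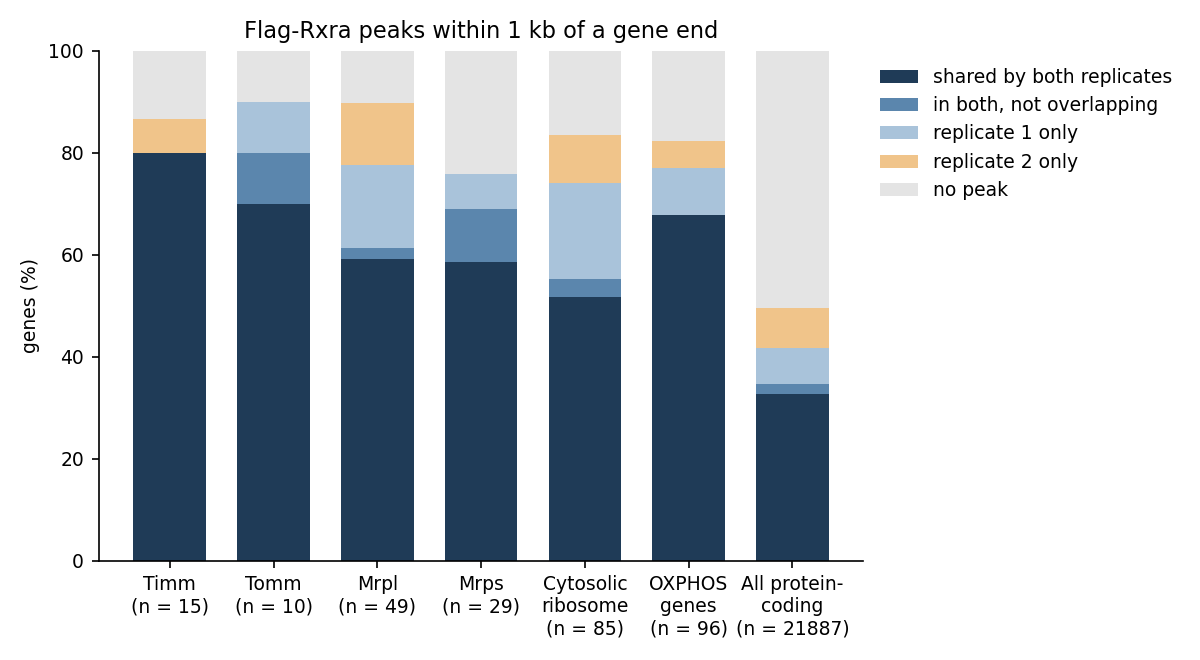
Share of genes (%, y axis) by what lay within 1 kb of a gene end: a Flag-Rxra peak shared by both replicates, peaks of both replicates that do not overlap, a peak of replicate 1 or of replicate 2 alone, or none. The 4 families stand left of 3 wider gene sets, and the shared part reached 80.0% for Timm and 32.6% for all protein-coding genes.

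Widening the window added little at the gene ends. Within 2.5 kb a shared peak was found at 70 genes (68.0%), against 37.0% of all genes, and within 50 kb at 95 genes (92.2%), against 68.1%. The 5 genes that entered between 1 and 2.5 kb had the nearest edge of the peak 1313 bp (Mrpl18), 1441 bp (Mrpl4), 1466 bp (Mrpl22), 1825 bp (Mrps10) and 2348 bp (Mrps5) from an end. Of the genes just inside 1 kb, Mrpl38 had its peak edge 818 bp and Mrpl45 624 bp away. Another 8 genes had no shared peak within 50 kb: Mrpl13, Mrpl15, Mrpl16, Mrpl19, Mrps31, Timm8a1, Timm8a2 and Tomm5.

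At the inner membrane, a shared peak lay at each of 6 Timm genes of the TIM23 complex and its motor. Timm50, the receptor that takes presequences from the TOM channel, had a fold enrichment of 15.2 in replicate 1 and 18.2 in replicate 2. Timm23, the channel subunit, had 10.3 and 15.0. Its paralogous partners, the Timm17 subunits, had lower values in replicate 2, with 10.2 and 12.6 for Timm17a and 10.2 and 12.8 for Timm17b. Timm44, which tethers the heat shock motor that pulls precursors in, differed most among these 6 Timm genes, with 6.63 in replicate 1 and 18.3 in replicate 2. Timm21, a subunit that links TIM23 to the TOM complex and to respiratory-chain assembly, had 10.2 and 10.0. All folds are the authors' value for each peak over their local background, so they are read here within a list and not as amounts of protein.

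Among the small Tim chaperones and the TIM22 complex the values were more spread. Timm13, which works with the Timm8 proteins, was the best-ranked import gene, with 15.5 in replicate 1 and 24.8 in replicate 2. Timm10b, a small Tim of the TIM22 complex, had 9.83 and 25.4. Timm8b had 11.8 and 16.8. The shared peaks of the central carrier chaperone pair were at the low end in replicate 1, with 5.14 and 16.1 for Timm10, and with 5.78 and 8.01 for Timm9. At Timm10, replicate 1 also had a stronger peak within 1 kb (10.7), outside the shared one. Timm22, the carrier translocase itself, was one of the few genes higher in replicate 1, with 14.6 and 9.36. Timm29, a TIM22 subunit, had a peak of 9.52 in replicate 2 and none in replicate 1. Neither Timm8a1, the X-linked mouse counterpart of the gene mutated in human deafness-dystonia syndrome, nor its paralog Timm8a2 had a peak in either list within 1 kb.

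At the outer membrane, Tomm40, which forms the channel, had nearly equal folds, 16.1 in replicate 1 and 16.3 in replicate 2. Its paralog Tomm40l had 15.1 and 24.0. The precursor receptors had 9.56 and 18.8 (Tomm20) and 11.5 and 16.1 (Tomm70a), while Tomm22, the receptor that also organises the complex, had a peak of 9.14 in replicate 1 only. Of the small subunits around the channel, Tomm7 had 13.4 and 18.9 and Tomm6 had 9.77 and 6.81. Tomm5, another small subunit, had peaks of 8.16 and 7.21 that did not overlap each other. Tomm34, a cytosolic cochaperone of import, had 9.44 and 18.3, and Tomm20l, the Tomm20 paralog, had no peak.

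**Figure D2:**
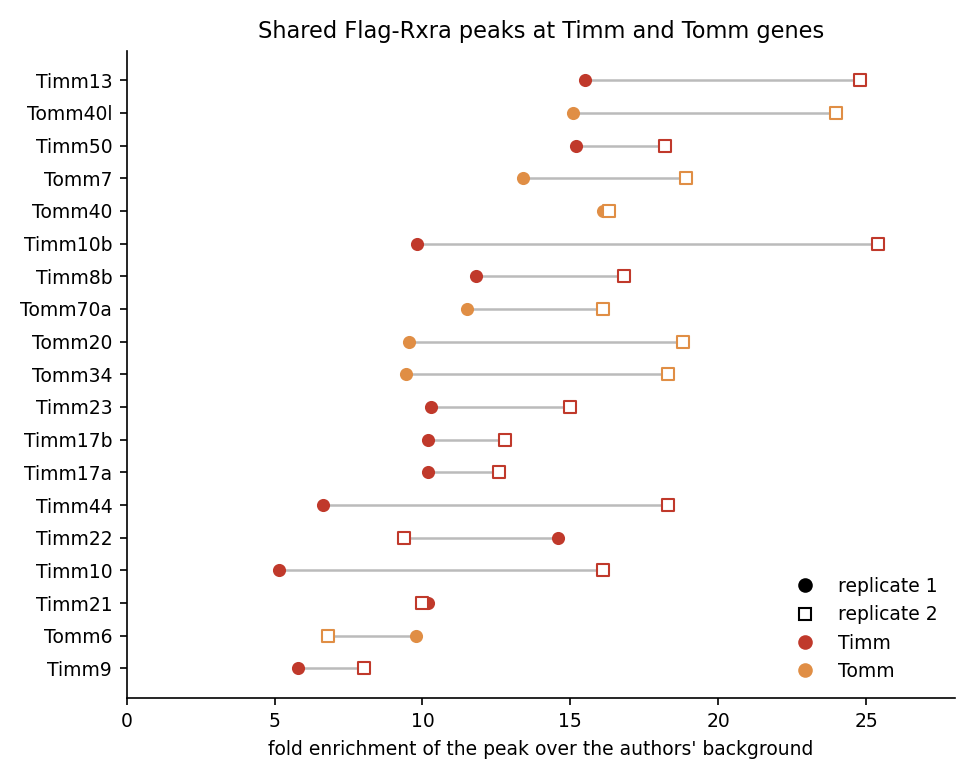
Fold enrichment of the shared Flag-Rxra peak (x axis, authors' value over their local background) at the 19 Timm and Tomm genes that had one, ordered by summed rank over both replicates. Filled circles are replicate 1 and open squares replicate 2, and 16 of the 19 pairs have the higher value in replicate 2. Over all genes with a shared peak the replicate 2 median was also higher (15.7, against 11.3 in replicate 1).

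The mitoribosomal genes covered the same range. Mrps17, a small-subunit protein, ranked first of all the genes with folds of 19.8 in replicate 1 and 23.7 in replicate 2. Mrps12, a protein of the decoding centre, had 14.7 and 26.5, the largest replicate 2 value of the list. Mrps33 had 22.3 and 18.7, the largest replicate 1 value. Mrps12 and Mrps33 both belong to the small subunit. Mrps36 had 13.5 and 20.9, a protein named for the small subunit but known since as a part of the oxoglutarate dehydrogenase complex. Of the large subunit, Mrpl3, a protein that lies near the catalytic centre, had 16.0 and 21.9, Mrpl33 had 12.3 and 23.4 and Mrpl48 had 13.9 and 17.7. The lowest-ranked Mrpl genes by their shared peak were Mrpl28, with 5.39 and 10.4, and Mrpl2, with 7.15 and 8.56. At Mrpl2, replicate 2 also had a stronger peak within 1 kb (15.1), outside the shared one.

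The 29 Mrpl genes with a shared peak had median folds of 11.2 in replicate 1 (5.33 to 16.8) and 14.4 in replicate 2 (8.56 to 23.4). The 17 Mrps genes ran over 6.02 to 22.3 in replicate 1 and over 9.21 to 26.5 in replicate 2, where their median was 15.8. The import families lay in the same range, with medians of 10.2 and 15.6 for Timm and 11.5 and 18.3 for Tomm. A second shared peak lay within 1 kb of an end of 5 genes, Mrpl14, Mrpl34, Mrpl37, Mrpl41 and Mrps18b.

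The 38 genes without a shared peak fell into 4 classes. Replicate 1 alone had a peak at 11 (10.7% of the 103 listed genes, against 7.11% of all genes). These were Mrpl9, Mrpl10, Mrpl12, Mrpl13, Mrpl16, Mrpl21, Mrpl27, Mrpl52, Mrps18a, Mrps25 and Tomm22. Their folds ran between 6.55 (Mrpl52) and 14.2 (Mrpl16). Mrpl12 belongs to the ribosome's factor-binding stalk. Replicate 2 alone had one at 7 (6.80% of the 103, against 7.79% of all genes). These were Mrpl15, Mrpl18, Mrpl20, Mrpl22, Mrpl23, Mrpl49 and Timm29, with folds between 5.12 (Mrpl49) and 14.1 (Mrpl15). Both lists had a peak, but not an overlapping one, at 5 (4.85% of the 103, against 1.98% of all genes). Of these, Mrpl35 had 15.1 in replicate 1 and 16.5 in replicate 2. The others were Mrps21 (6.46 and 21.3), Mrps23 (9.91 and 8.32), Mrps24 (6.32 and 10.2) and Tomm5. No peak lay within 1 kb in either list at 15 genes (14.6% of the 103, against 50.5% of all genes). These were Mrpl4, Mrpl19, Mrpl24, Mrpl42, Mrpl53, Mrps5, Mrps10, Mrps18c, Mrps22, Mrps31, Mrps34, Mrps35, Timm8a1, Timm8a2 and Tomm20l.

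Across the 65 genes the folds ran over 5.14 to 22.3 in replicate 1, with a median of 11.1, and over 6.81 to 26.5 in replicate 2, with a median of 15.4. All 7128 genes with a shared peak had medians of 11.3 and 15.7. The peaks at these genes were thus about as strong as peaks at other genes, and none approached the highest values elsewhere (47.2 in replicate 1 and 68.9 in replicate 2). Replicate 2 had the higher fold at 54 genes and replicate 1 at 11. The same count was not made over all genes, but their replicate 2 median was also the higher one. This order is therefore not particular to the listed genes, and the folds come from separate lists.

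Most peaks sat near the starts of the genes. The replicate 1 summit lay within 200 bp of a gene end at 45 of 65 genes (69.2%), against 63.0% of all genes with a shared peak. For the 59 genes whose start is given in the promoter table, the summit lay within 1 kb of it at 54 and within 200 bp at 42 (71.2%, against 64.4% of all genes with a shared peak and a listed start). Of those 54 summits, 38 were upstream and 16 downstream. Their median was −79 bp, against −64 bp for all genes with a summit within 1 kb of the listed start. The exceptions were 3 genes with the shared peak near their far end, Mrpl3 (23990 bp after the start, at chr9:105077163-105077339), Mrpl58 (9730 bp) and Mrps30 (6606 bp). Outside its shared peak, Mrps30 had stronger peaks within 1 kb of an end, with folds of 10.9 in replicate 1 and 11.6 in replicate 2. In Mrpl36 and Mrps2 the summit lay upstream of the listed start (at −2538 and −1938 bp) but 32 and 177 bp from the upstream end of the gene as annotated.

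**Figure D3:**
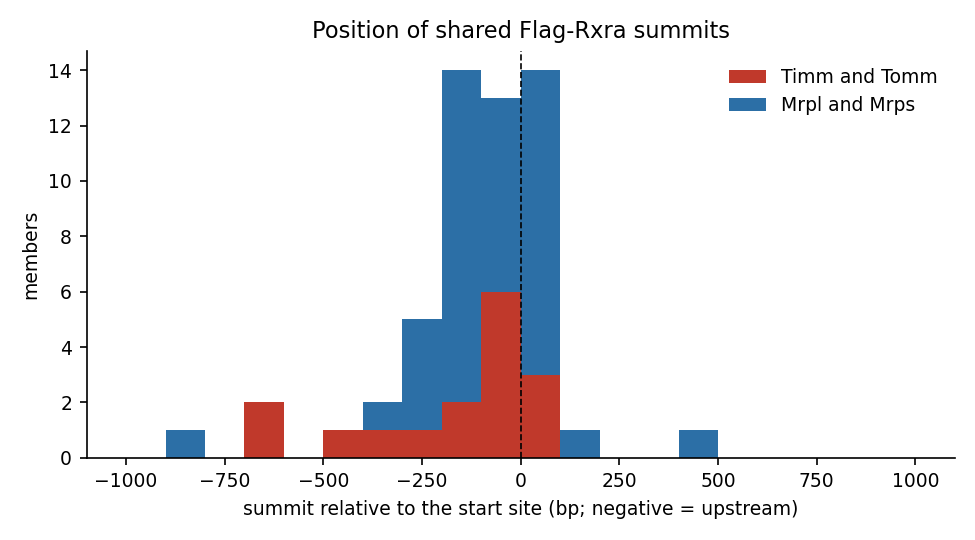
Number of genes (y axis) by distance of the replicate 1 summit from the listed start site in bp (x axis, negative is upstream) for the 54 genes within 1 kb, with Mrpl and Mrps stacked on Timm and Tomm. Most bars stand within 200 bp of the start, and 38 of the 54 summits are upstream.

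Many of these peaks also lie at an end of another gene, be it the start or the far end. Such a peak cannot be assigned to either gene. The shared peak also lay within 1 kb of an end of another protein-coding gene at 39 of 65 genes (60.0%), against 31.2% of all genes with a shared peak. Among the best-ranked were Mrps12 with Sars2, the mitochondrial seryl-tRNA synthetase, Timm13 with Lmnb2 (lamin B2) and Tmprss9, Tomm40l with Apoa2 (an apolipoprotein), and Tomm40 with Nectin2 (a cell adhesion protein). Mrpl48 shared its peak with Rab6a (a Golgi GTPase), Mrpl51 with Ncapd2 (a condensin subunit), Mrpl32 with Psma2 (a proteasome subunit) and Mrps16 with Cfap70. A single peak at chr7:78783046-78783331, with folds of 12.4 and 15.4, covered the facing starts of Mrpl46 and Mrps11 and was counted for both, so the 65 genes held 64 distinct best peaks.

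A start on the opposite strand within 1 kb was listed for 31 of the 91 genes with a promoter entry (34.1%), against 9.61% of all 17492 protein-coding genes with one. The facing genes are of many kinds, for example Twnk (the mitochondrial DNA helicase) beside Mrpl43, Hira (a histone chaperone) beside Mrpl40 and Parg (a glycohydrolase of poly-ADP-ribose) beside Timm23. With an opposite start, 24 of 31 genes had a shared peak (77.4%), against 70.6% of all genes with one. Without it, 35 of 60 had a shared peak (58.3%), against 29.5% of all such genes. The genes were also short, with a median length of 7749 bp against 17169 bp, which places both ends close together. What each of these features contributes to the count of peaks was not tested.

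The short motifs known from mitochondrial promoters were more frequent in these promoters than in all promoters. Over 99 promoters of 91 genes, the ETS core was found in 55.6%, against 18.7% of 21263 protein-coding promoters and 29.9% of the 7220 promoters of genes with a shared peak. Promoters of listed genes with a shared peak held it in 55.2% and those without in 56.2%. The NRF1 core was found in 23.2%, against 8.61% of all and 16.0% of those with a shared peak, and the YY1 core in 16.2%, against 6.24% and 7.45%. For the NRF1 core these shares were 25.4% with a shared peak and 18.8% without, and for the YY1 core 14.9% and 18.8%. Of the 38 listed genes without a shared peak, 23 had a peak in at least 1 list, so this split does not set genes with a peak against genes without any.

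The hexamer AGGTCA, the core letters that Rxra and its partners read, was found in 18.2% of these promoters (18 of 99), against 14.7% of all promoters and 11.9% of those of genes with a shared peak. Listed genes with a shared peak held it in 19.4% of promoters and those without in 15.6%. It was found in 29.2% of the 24 Timm and Tomm promoters and in 14.7% of the 75 Mrpl and Mrps promoters. The import genes that hold it are Timm8b, Timm10b, Timm13, Timm23, Timm44, Tomm6 and Tomm70a, all of which had a shared peak, as 16 of the 22 import genes with a promoter entry did. Of the 11 mitoribosomal genes that hold it, Mrpl36, Mrpl43, Mrpl47, Mrpl57, Mrps15 and Mrps30 had a shared peak and Mrpl12, Mrpl22, Mrpl53, Mrps21 and Mrps22 had none. A pair of hexamers in the same orientation, 1 to 5 bases apart, was found in none of the 99 promoters, and over all promoters it was rare (10 of 21263 at a spacing of 1). No match says only that these letters are not in these windows.

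Of the general promoter letters, the GC box GGGCGG was found in 50.5% of the promoters, against 46.2% of all and 67.4% of those with a shared peak. It was more frequent at listed genes with a shared peak (59.7%) than without (31.2%). The NF-Y box CCAAT was found in 37.4%, against 38.2% of all, and Tomm40 holds it at 5 places. The E-box was found in 12.1%, against 7.84% of all, and the TATA box TATAAA in 7.07%, against 12.6%. The promoters had a median of 21.0 CpG dinucleotides, against 13.0 in all promoters and 22.0 in those of genes with a shared peak.

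**Figure D4:**
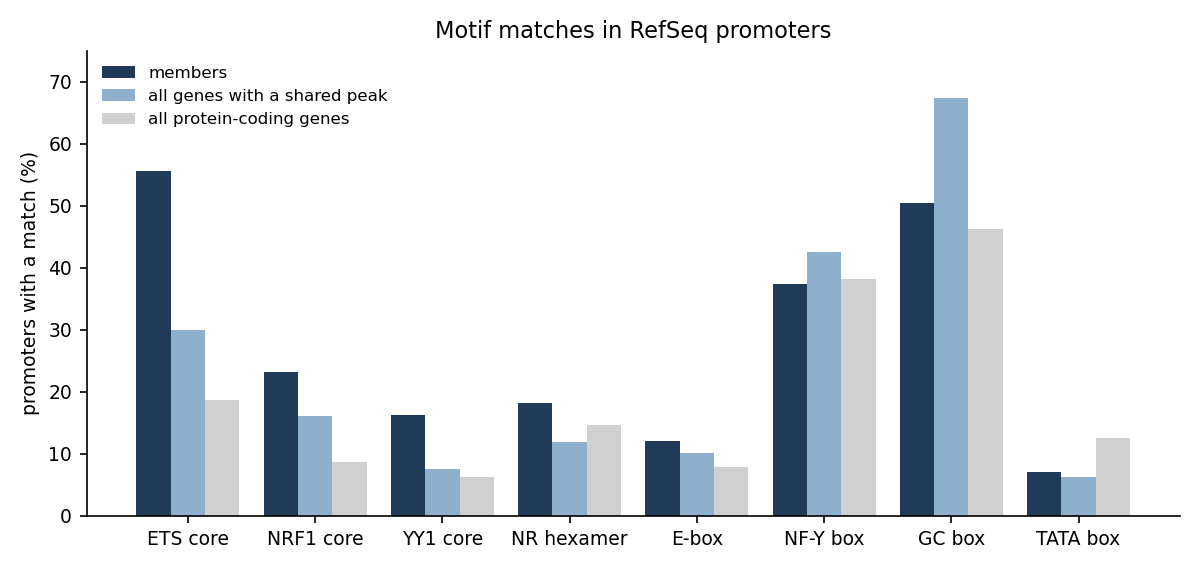
Share of RefSeq promoters of 300 bases (%, y axis) with at least 1 match to each motif on either strand (x axis, NR hexamer is AGGTCA), for the mitoribosome and import genes (99 promoters), all genes with a shared Flag-Rxra peak (7220) and all protein-coding genes (21263). The ETS core stands at 55.6%, 29.9% and 18.7%, while the NF-Y box is nearly level.

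H3K27ac was compared between CD and DMSO with 1 list per condition, both replicates naming the same list, so no replicate error and no test can be given. A region lay within 1 kb of a gene end at 64 of 103 genes in CD (62.1%, against 38.3% of all genes) and at 59 in DMSO (57.3%, against 35.8%). Both lists had one at 40 genes, against 21.2% of all genes, CD alone at 24, against 17.1%, DMSO alone at 19, against 14.7%, and neither at 20, against 47.0%. By family the counts in CD and DMSO were 10 and 8 for Timm, 7 and 4 for Tomm, 31 and 30 for Mrpl, and 16 and 17 for Mrps. Within 2.5 kb they were 85 genes in CD, against 56.2% of all, and 73 in DMSO, against 49.4%. Within 50 kb every one of the 103 had a region in CD and in DMSO, against 89.3% and 83.3% of all genes. The CD list is the longer one, with 104437 regions over 37.3 Mb, against 75482 regions over 31.1 Mb in DMSO, so a higher CD count is not by itself a gain of the mark.

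Most of these regions were weakly called. With a −log10 q of at least 2, a region lay within 1 kb of 11 genes in CD (against 6.65% of all genes) and of 24 genes in DMSO (against 8.84%). The order of the conditions turned at this limit, for these genes and for all genes. The strongest CD region was at Timm44, with a −log10 q of 6.48, at its far end (chr8:4260142-4260363), followed by 4.02 at Mrpl53. The strongest DMSO regions were at Mrps28 (4.41) and Mrpl54 (4.37). These compare with a lower limit of 1.00 in both lists.

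Counted as bases covered within 2.5 kb of the gene ends, 50 genes had more in CD, against 35.8% of all genes, 44 had more in DMSO, against 32.1%, and 9 were equal. The mean was 508 bases in CD and 492 in DMSO. The direction depends on the calls. With a −log10 q of at least 2, 12 genes had more in CD (against 9.69% of all genes) and 24 in DMSO (against 11.8%). The CD list was also trimmed to the covered length of the DMSO list. Then 46 genes had more in CD (against 31.3% of all genes) and 45 in DMSO (against 34.1%). The largest excess in CD was at Tomm40, with 1744 bases in CD and 0 in DMSO. Mrps33 had 1158 and 0, Mrpl54 1599 and 467, and Mrpl3 1124 and 0. The opposite held at Mrpl48, with 0 bases in CD and 1521 in DMSO, at Timm23 (322 and 1758), at Mrpl1 (258 and 1580) and at Timm17a (0 and 1289). Tomm40 and Timm23, the channel genes of the outer and the inner membrane, stood on opposite sides. Neither had a region within 1 kb with a −log10 q of at least 2, nor had Mrpl1, Mrpl3 and Mrpl48. Mrps33 had one in CD, Timm17a in DMSO and Mrpl54 in both, with 2.62 in CD and 4.37 in DMSO.

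Within 50 kb of the gene, 60 genes had more covered bases in CD, against 59.5% of all genes, and 43 had more in DMSO, against 31.3%. The mean was 3638 bases in CD and 3144 in DMSO. The median difference, CD minus DMSO, was 694 bases, against 282 over all genes. With a −log10 q of at least 2 it reversed to −143, with 36 genes higher in CD (against 34.8% of all genes) and 60 in DMSO (against 39.5%). The largest CD excess was at Mrpl9, with 4762 bases in CD and 208 in DMSO. Tomm5 had 4806 and 800, Mrpl2 6966 and 3176, Mrps36 4735 and 1034, Mrpl42 4064 and 658, and Timm44 7509 and 4333. The largest DMSO excess was at Mrps18b, with 2911 bases in CD and 6905 in DMSO. It was followed by Timm10b (1411 and 5280), Mrpl52 (5017 and 8354), Tomm20 (5695 and 8988), Mrpl12 (4934 and 7650) and Mrps23 (5591 and 7695). The share with more in CD was near that of all genes, and the share with more in DMSO was above that of all genes. None of these genes was equal, while 2028 of all genes were. With the CD list trimmed to the covered length of the DMSO list the median difference was 98.0 bases, against 0 over all genes.

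**Figure D5:**
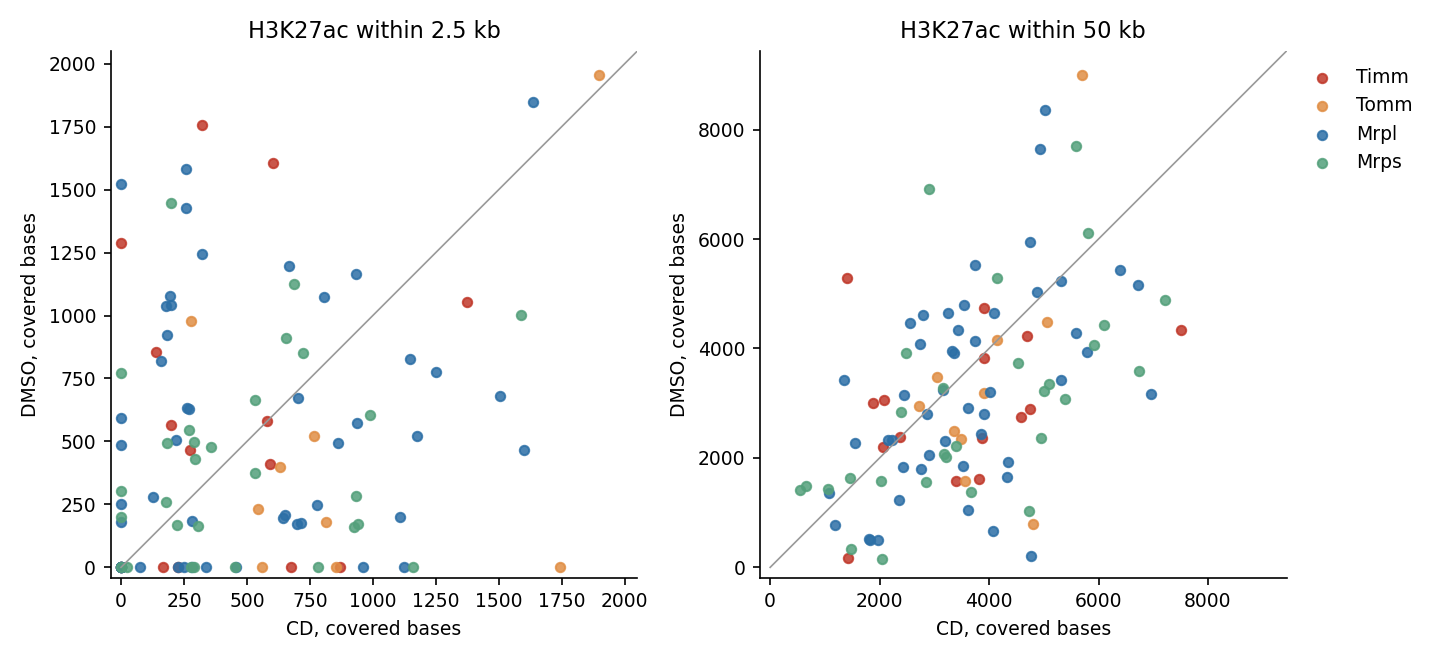
H3K27ac-covered bases in CD (x axis) and DMSO (y axis) within 2.5 kb of the gene ends (left) and within 50 kb of the gene (right), 1 point per gene, coloured by family, with the line of equality. Points lie on both sides of the line, 50 below and 44 above at 2.5 kb, 60 below and 43 above at 50 kb.

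Flag-Rxra peaks and the H3K27ac regions met at some of these genes only. Of the 65 genes with a shared peak, the peak itself overlapped a CD region at 29 (44.6%, against 37.6% of all genes with a shared peak), a DMSO region at 31 (47.7%, against 46.0%), both at 19 (29.2%, against 23.7%) and neither at 24 (36.9%, against 40.1%). The overlapping regions were weak, with a −log10 q of at most 3.23 in CD and 4.41 in DMSO. Among genes with a region in CD or DMSO within 1 kb, 56 of 83 listed genes had a shared peak (67.5%), against 50.6% of all such genes. Among genes without one, 9 of 20 had a shared peak (45.0%), against 12.2%. Peaks were thus also present at listed genes where neither list had a region called within 1 kb. Some of these genes had called regions farther out, as Timm50 did.

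The other genes of the pathways were described from lists chosen with earlier results of these data known, and their counts stand beside the same 32.6% of all genes. Of 6 mitoribosomal proteins under other symbols, 5 had a shared peak, among them Oxa1l (the inner-membrane insertase that receives the ribosome's products, 14.3 in replicate 1 and 20.5 in replicate 2) and Dap3 (10.4 and 8.03), but not Gadd45gip1. Of 24 genes for ribosome assembly and mitochondrial translation, 12 had one, among them Lrpprc, which stabilises mitochondrial messenger RNAs (17.0 and 14.4). The elongation factor Tufm had 8.46 and 8.29. Of 23 import partners, 16 had one (69.6%). They include Samm50, the sorting channel for outer-membrane barrels (16.0 and 22.0), Dnajc19 (14.9 and 21.0) and Pam16 (7.98 and 24.6) of the import motor, and the motor's heat shock protein Hspa9 (11.4 and 22.8). The facing chaperonin genes Hspd1 and Hspe1 share a single peak (10.7 and 15.9).

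A list of 15 genes held regulators of nuclear genes for mitochondria and proteins that act in transcribing or copying mitochondrial DNA. Of these 15, 8 had a shared peak (53.3%, against 32.6% of all genes). Among the 8, Polg, Tfam, Tfb2m and Twnk are of the second kind, and the Twnk peak is the one counted for Mrpl43. Gabpa, the ETS-family subunit of GABP, had folds of 13.9 in replicate 1 and 27.2 in replicate 2. Esrra, an orphan nuclear receptor of energy metabolism, had 13.8 and 22.4, and Yy1 had 14.2 and 19.9. Tfam and Tfb2m, factors that help start transcription of the mitochondrial genome, had 11.9 and 15.8, and 17.2 and 21.3. Polrmt, the polymerase that transcribes it, had a peak in replicate 2 only (19.2). Nrf1 had a peak in replicate 1 only (14.3).

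The fibroblast label was checked against marker genes in the H3K27ac lists. Of 12 fibroblast markers, 7 had a region within 1 kb in CD (against 38.3% of all genes) and 6 in DMSO (against 35.8%). Col3a1, Vim, Twist1, Twist2 and S100a4 had one in both, Fn1 and Pdgfrb in CD, Pdgfra in DMSO, and Col1a1, Col1a2, Thy1 and Postn in neither. Of 4 endothelial markers 0 had one in CD and 3 in DMSO, and of 4 macrophage markers 2 and 0. For keratinocyte markers the counts were 2 and 0 of 4, for neural markers 0 and 1, for muscle markers 1 and 0 and for pluripotency markers 1 and 0. Their part in the CD and DMSO values of the mitochondrial genes was not tested.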

How the data were processed

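The authors' processing is known only in part. Per the submitters' processing notes, reads were handled with MACS2 2.1.2, Bowtie2 2.2.5, deepTools 3.4.3 and fastp 0.20.1 on build mm10. The sources used here do not say how replicates were combined or whether a control library entered peak calling. The deposited files used were 4 peak lists: broad H3K27ac regions, 1 list per condition, and narrow Flag-Rxra peaks, 1 list per replicate. The Flag-Rxra lists were assigned to replicates by the list names in the labels, while the peak names inside them carry other codes (CM2 and CM3), so which replicate is which rests on those names. The fold of each peak is a ratio over local background as deposited by the authors, and its −log10 q value (at least 1.00 for H3K27ac, 5.00 for Flag-Rxra) and summit are also as deposited. Neither is comparable between the broad and narrow lists. Read depth per sample is unknown, so intervals on shares of genes (exact Clopper-Pearson, 95%) cover counting error over genes only, and genes are not replicates.

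Gene ends came from the RefSeq table for GRCm38.p6, promoters from its sequence table, where 12 of the 103 genes had no entry. Windows of 1 and 2.5 kb surround both gene ends; for covered bases the 50 kb window surrounds the whole gene. A gene's best peak has the lowest summed rank of fold over both replicates. Folds given for a gene with a shared peak are of its best shared peak, so a replicate can hold a stronger one within 1 kb. The code was tested on simulated intervals (Python 3.11.15, numpy 2.4.6, pandas 2.3.3, scipy 1.17.1, matplotlib 3.10.9).

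The genes and lists were chosen with earlier results of these data known. Named were the 12 best and 4 worst genes by summed rank, every Timm and Tomm gene, Mrpl and Mrps genes without a shared peak within 50 kb, the 6 largest CD and DMSO excesses at 50 kb and 4 at 2.5 kb, and up to 8 best-ranked genes whose peak lies at another gene. Other genes named were chosen after their values were seen. Printed promoters were those of the 3 best-ranked genes of each kind with a promoter entry (Tomm40l and Tomm7 have none) and of 2 import genes without a shared peak, with chromosome 18 left out. Alternatives were a 50% overlap, higher q limits, starts only, 1 gene per locus, single replicates and a trimmed CD list.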

Additional observations from a re-analysis of the deposited data

How the results depend on the processing

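Either Flag-Rxra replicate used alone (leaving out the other) gave 77 to 81 genes with a peak within 1 kb, with 12 to 13 Timm, 8 to 9 Tomm, 36 to 38 Mrpl and 20 to 22 Mrps genes. Requiring an overlap of at least 50% of both peaks left 39 genes (all genes 20.2%), with 6 Timm, 5 Tomm, 18 Mrpl and 10 Mrps genes. A −log10 q of at least 20 in both lists left 46 genes (all genes 24.2%), of which 6 were Timm, 6 Tomm, 21 Mrpl and 13 Mrps. Counting starts only gave 57 of 91 genes (all genes 34.3%), and 1 gene per locus 64 of 101. For H3K27ac, a −log10 q of at least 2 left regions within 1 kb at 11 genes in CD (all genes 6.65%) and 24 in DMSO (8.84%). With the same limit the covered length within 2.5 kb was larger in CD at 12 genes and in DMSO at 24 (all genes 9.69% and 11.8%). At 50 kb it was larger in CD at 36 and in DMSO at 60 (all genes 34.8% and 39.5%). The median difference at 50 kb, CD minus DMSO, reversed to −143 (all genes 0). With the CD list trimmed to the covered length of DMSO that median was 98.0 (all genes 0). The causes of these shifts were not tested. No paired analysis was possible because each H3K27ac condition had 1 list and the Flag-Rxra group had no comparison group. With no reads or control library used here, peaks not called cannot be told apart from weak ones.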
